A study of Mus musculus with 4 samples.

Results

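The genes of glycolysis and of the response to low oxygen were followed across the small intestine of Cftr null (CF) and wild-type (WT) mice, with and without lubiprostone. The set holds 35 genes, taken by symbol: the genes from glucose entry to lactate export, those of oxygen sensing, and genes known to be induced by low oxygen. Of these, 32 had a probe set annotated to that gene alone, and 30 also reached the array's median signal on at least 1 of the 4 arrays, of 12259 genes kept in all. These 30 rest on 65 probe sets, and 20 of them have more than 1. The annotation gave no probe set for Gpi1 or Eno1. Bnip3l was listed only on 3 probe sets shared with a pseudogene, and Eno2 and P4ha2 stayed below the median on all 4 arrays, with signals of 45.8 to 103 and of 31.2 to 56.1.

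The 4 pools of total RNA measured were each made from the whole small intestine with the mesentery trimmed away. The CF + lubiprostone pool came from 8 mice and the CF control pool from 10, all homozygous for the Cftr tm1UNC null allele. The WT + lubiprostone pool came from 7 and the WT control pool from 10 wild-type littermates. All were on a C57BL/6 background and on the liquid diet Peptamen, which was itself the vehicle, so that the controls share the diet. Lubiprostone, a bicyclic fatty acid used as a laxative and described as an activator of the ClC-2 chloride channel, was given by gavage at 10 µg/kg/day for 2 weeks. The pool sizes are those of the description deposited with the arrays, and the study's methods give another number of mice for WT control. The labels give neither sex nor age.

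Glycolysis splits glucose into pyruvate in the cytosol and yields ATP without oxygen, and lactate dehydrogenase then turns pyruvate into lactate so that the pathway can go on. When oxygen is plentiful, prolyl hydroxylases of the Egln family mark the alpha subunit of hypoxia-inducible factor (HIF) for breakdown. When oxygen is scarce the subunit stays, pairs with Arnt, and raises the transcription of glucose transporters, nearly every glycolytic enzyme and growth factors such as Vegfa. The mucosa of the gut is known for an oxygen level that drops steeply from the vessels toward the lumen.

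Each value is a signal, an intensity in arbitrary units computed over all probes of 1 set. With 1 pool on 1 array per group there is no spread between replicates, so no difference could be tested, and each fold is a ratio of arrays. The ± values are SDs of the log2 ratio between the probe sets of a gene, which show spread within arrays only. Over all 5569 genes with more than 1 probe set, the median of this SD was 0.24 for CF control over WT control, 0.23 for CF over WT with lubiprostone, 0.26 for lubiprostone in CF and 0.20 for lubiprostone in WT. The 4 arrays had median signals between 109 and 124, with the same trimmed mean on each. The ratio of 3' to 5' signal of the Gapdh control probe sets was 0.776 and 0.746 in the CF pools, against 0.809 in both WT pools. For the Actb control probe sets it was 1.34 in CF + lubiprostone and 1.23 in CF control, against 1.25 in WT + lubiprostone and 1.29 in WT control. The brighter Cftr probe set read 715 in CF + lubiprostone and 620.2 in CF control, against 2226 in WT + lubiprostone and 2505 in WT control. Its place relative to the disrupted exon was not examined.

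The first comparison asked how the transcripts of the pathway stood in the untreated CF intestine. Of the 30 genes, 28 had a higher signal in the CF control pool than in the WT control pool, where 47.7% of all genes were higher. At least 1.5-fold higher were 17 genes, against 8.05% of all genes, and 1 gene, Ndrg1, was at least 1.5-fold lower, against 12.2% of all genes. With the arrays scaled to the same median the background moved, to 1745 genes higher and 1006 lower of 12259, beside 987 and 1498, and 18 members were higher and 1 lower. At 3-fold, Slc2a1, Hk2, Ak4 and Ero1l were higher, 4 genes against 1.25% of all, and no member was lower, against 2.01% of all. Ak4 passed 3-fold only with its dim WT signals as measured. The median log2 ratio of the members was 0.62, beside -0.02 over all genes. Ak4 could enter only by being high in CF control, since none of its probe sets reached the median on another array, so these counts describe the genes kept and not all 35. Likewise, 1 of the 2 P4ha1 probe sets passed the filter only through CF control, and 1 of the 2 Adm probe sets only through the CF pools. P4ha1 passed 1.5-fold only with its dim WT control signal as measured, and was 1.36-fold higher with that signal set to the array's median. In RNA of whole intestine, fewer cells of a type and less RNA per cell cannot be told apart.

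**Figure D1:**
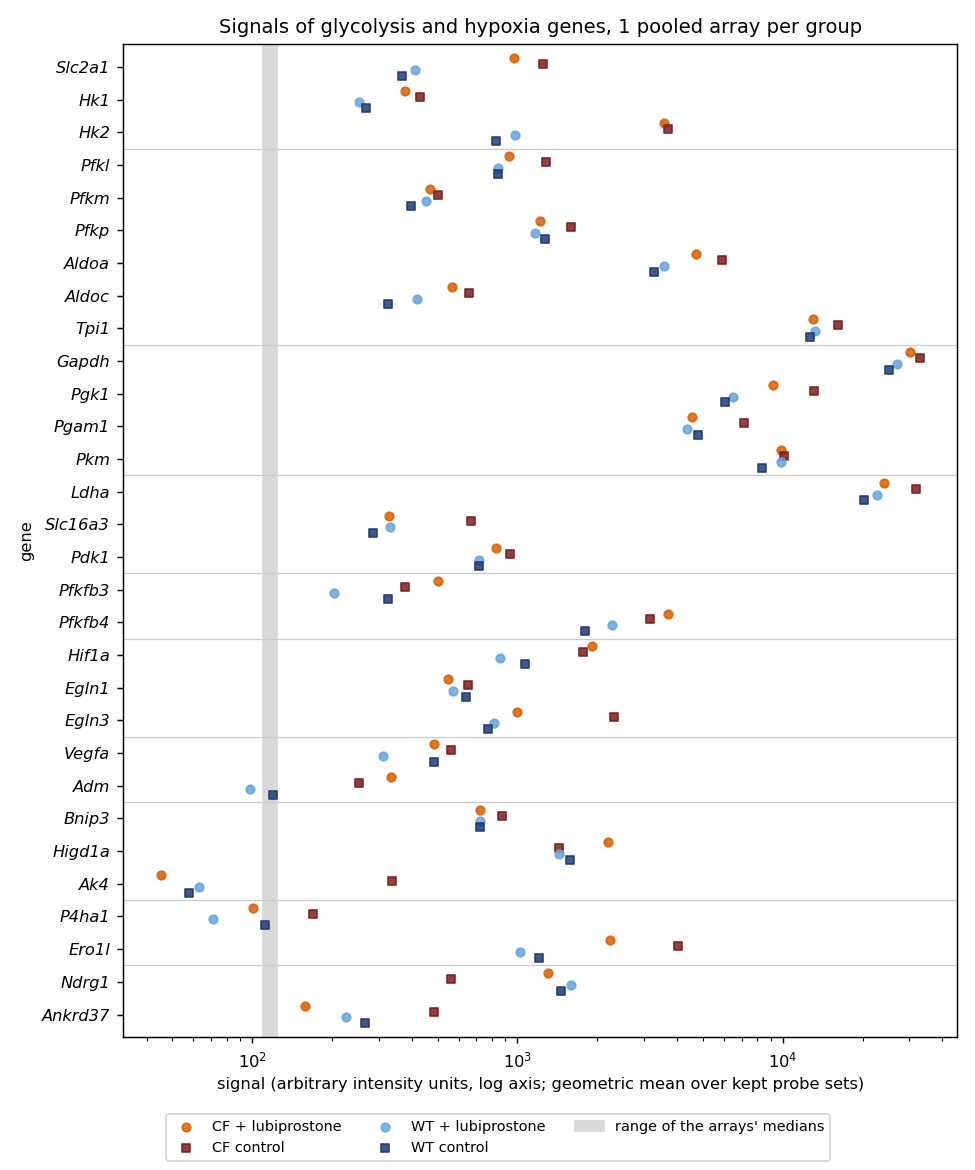
Signal of each kept gene on each of the 4 pooled arrays, as the geometric mean over its probe sets on a log axis, with genes grouped by role and the grey band marking the arrays' medians. CF control is the highest of the 4 pools for 16 of the 18 glycolytic genes, and Ndrg1 is the gene whose CF control signal, 560.2, lies clearly below the other 3 pools.

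The promoters of 6 members are printed because these genes had the highest CF control over WT control ratios among members whose promoter holds the core letters of a HIF binding site. Each stretch runs from 250 bases before to 50 bases after the RefSeq start, on build GRCm38.p6. The capitals mark ACGTG or GCGTG on either strand, so that they also read CACGT or CACGC. Ak4 lies at chr4:101419039-101419338 on the plus strand, Hk2 at chr6:82774405-82774704 on the minus strand and Slc2a1 at chr4:119108495-119108794 on the plus strand. Ero1l lies at chr14:45318523-45318822 on the minus strand, Egln3 at chr12:54203825-54204124 on the minus strand and Slc16a3 at chr11:120948817-120949116 on the plus strand.
Ak4: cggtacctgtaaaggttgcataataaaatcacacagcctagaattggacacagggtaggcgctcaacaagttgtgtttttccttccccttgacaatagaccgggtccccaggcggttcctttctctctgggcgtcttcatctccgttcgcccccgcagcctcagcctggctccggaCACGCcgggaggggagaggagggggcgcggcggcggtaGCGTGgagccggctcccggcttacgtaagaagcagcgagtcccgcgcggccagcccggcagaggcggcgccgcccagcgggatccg
Hk2: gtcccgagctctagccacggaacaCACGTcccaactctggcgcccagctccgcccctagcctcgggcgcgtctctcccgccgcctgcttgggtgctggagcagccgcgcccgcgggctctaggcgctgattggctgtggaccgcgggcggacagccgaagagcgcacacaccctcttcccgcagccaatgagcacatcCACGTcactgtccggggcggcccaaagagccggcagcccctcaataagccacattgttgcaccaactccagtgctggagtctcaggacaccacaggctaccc
Slc2a1: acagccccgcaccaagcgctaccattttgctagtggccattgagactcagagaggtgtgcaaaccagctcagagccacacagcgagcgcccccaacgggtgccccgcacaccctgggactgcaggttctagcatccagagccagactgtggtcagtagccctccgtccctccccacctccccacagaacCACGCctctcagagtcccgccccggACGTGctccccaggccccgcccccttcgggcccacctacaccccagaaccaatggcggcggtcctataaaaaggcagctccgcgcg
Ero1l: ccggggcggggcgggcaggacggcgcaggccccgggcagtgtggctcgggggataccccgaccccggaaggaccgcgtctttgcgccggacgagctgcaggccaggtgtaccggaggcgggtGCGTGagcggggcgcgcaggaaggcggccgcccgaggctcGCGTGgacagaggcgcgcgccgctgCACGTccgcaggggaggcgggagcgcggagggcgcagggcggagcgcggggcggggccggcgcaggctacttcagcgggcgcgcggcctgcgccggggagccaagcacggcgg
Egln3: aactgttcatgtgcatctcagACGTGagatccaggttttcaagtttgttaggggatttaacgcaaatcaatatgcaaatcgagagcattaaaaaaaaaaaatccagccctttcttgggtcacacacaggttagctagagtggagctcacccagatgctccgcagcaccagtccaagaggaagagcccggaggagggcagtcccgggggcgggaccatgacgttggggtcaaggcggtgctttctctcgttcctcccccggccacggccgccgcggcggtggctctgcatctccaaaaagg
Slc16a3: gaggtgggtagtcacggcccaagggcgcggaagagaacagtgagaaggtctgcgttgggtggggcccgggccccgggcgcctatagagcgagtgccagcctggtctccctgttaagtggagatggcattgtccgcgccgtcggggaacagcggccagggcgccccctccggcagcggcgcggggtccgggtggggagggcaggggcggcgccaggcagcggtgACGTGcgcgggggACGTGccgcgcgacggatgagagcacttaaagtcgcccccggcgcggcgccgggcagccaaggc
The core was found 3 times in the Ero1l stretch, 2 times in those of Ak4, Hk2, Slc2a1 and Slc16a3, and 1 time in that of Egln3. Of all 27025 promoters of this length, 43.8% held at least 1 core. Of the members with a promoter in the table, 26 of 33 did (78.8%), among them 15 (88.2%) of the 17 genes counted as higher in CF control and 9 of the other 12 genes kept (75%). The longer letters CACGTG, which contain the core and are also bound by other factors, occurred in 7.24% of all promoters, in 4 members and in none of the 6 printed. Base composition was not matched between the members and all promoters, and a match is only a match of letters.

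Marker transcripts of other tissue layers differed between the same pools. Of 7 smooth muscle markers, 6 had higher signals in CF control relative to WT control (median log2 ratio 0.50), and all 7 had lower signals in CF + lubiprostone relative to CF control (median -0.40). Their summed signal was 18634 in CF + lubiprostone and 28095 in CF control, against 20406 in WT + lubiprostone and 18076 in WT control. Of 6 goblet cell markers, 5 were higher in CF control (median 0.35), with sums of 79655 in CF + lubiprostone, 92533 in CF control, 78071 in WT + lubiprostone and 72991 in WT control. The 6 enterocyte markers kept were all lower in CF than in WT, with medians of -0.47 with lubiprostone and -0.40 in the controls, and their sums were 129747 in CF + lubiprostone and 114501 in CF control, against 184217 in WT + lubiprostone and 168156 in WT control. Between CF control and WT control, the summed signals were 1631 and 1464 for 5 endothelial markers, 740.5 and 919 for 5 enteric neuron markers, 14255 and 13506 for 6 proliferation markers, and 10805 and 12848 for 7 macrophage and neutrophil markers. Of the 7 macrophage and neutrophil markers, 3 were higher and 4 lower in CF control over WT control (median log2 ratio -0.02). With lubiprostone, 2 were higher and 5 lower in CF than in WT (median -0.19). These 2 were S100a8 and S100a9, made by neutrophils, which were at least 1.5-fold higher in both comparisons. Over all genes, 8.05% were so in the controls and 8.56% with lubiprostone. The 3 skeletal muscle markers kept, Ckm, Acta1 and Mylpf, were all at least 1.5-fold lower in CF + lubiprostone relative to CF control, against 6.77% of all genes. Their sums were 441 in CF + lubiprostone and 709 in CF control, against 664 in WT + lubiprostone and 631 in WT control. None of 7 red blood cell markers was kept. The part of these cell types in the values of the glycolysis and hypoxia genes was not tested.

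The 3 genes of glucose entry had a median log2 ratio of CF control over WT control of 1.77, the highest of the glycolytic groups. Slc2a1, the facilitative glucose transporter GLUT1, had a signal of 971 in CF + lubiprostone and 1244 in CF control, against 412 in WT + lubiprostone and 366 in WT control. Hk2, a hexokinase that traps glucose by phosphorylation and is known to be induced by HIF, read 3570 in CF + lubiprostone and 3710 in CF control, against 978 in WT + lubiprostone and 829 in WT control. In both genes the 2 CF pools stood well above the 2 WT pools. Slc2a1 was 3.40-fold above WT control in the CF control pool, with a log2 ratio of 1.77 ± 0.23 over 3 probe sets that ranged from 2.83-fold to 3.81-fold. The single Hk2 probe set had a log2 ratio of 2.16. Hk1, the constitutive hexokinase, differed less, at 427 in CF control and 268 in WT control (log2 ratio 0.67 ± 0.47), and its 2 probe sets were 2.01-fold and 1.27-fold higher. Another Hk1 probe set is shared with the ribosomal protein gene Rpl17 and with pseudogenes, and was not used.

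The middle of the pathway was higher in CF control gene by gene but by smaller folds. Of the 6 genes of upper glycolysis kept, all were higher, and their median log2 ratio was 0.47. Among the phosphofructokinases, which commit sugar to glycolysis, Pfkl had a log2 ratio of 0.59, Pfkm of 0.34 and Pfkp of 0.33 ± 0.37. The aldolase genes, whose enzymes split the 6-carbon sugar, stood higher: Aldoc read 659 in CF control and 326 in WT control, and Aldoa 5904 in CF control and 3271 in WT control. The 5 Aldoa probe sets were 1.10-fold to 2.40-fold higher (log2 ratio 0.85 ± 0.44). Tpi1, the triose phosphate isomerase, was among the brightest genes, at 16217 in CF control and 12694 in WT control, and its 3 probe sets lay within 1.27-fold to 1.29-fold.

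The 4 genes of lower glycolysis kept, whose enzymes make ATP and pyruvate, were also all higher, and their median log2 ratio was 0.48. Pgk1, the kinase of the first ATP-forming step, read 9224 in CF + lubiprostone and 13144 in CF control, against 6482 in WT + lubiprostone and 6043 in WT control. Its log2 ratio was 1.12 ± 0.62, and 1 of its 3 probe sets stood apart at 3.56-fold, beside 1.62-fold and 1.79-fold for the other two. Pgam1, the phosphoglycerate mutase, had a log2 ratio of 0.57, close to the 1.5-fold line. Gapdh, often taken as a constant gene, read 32805 in CF control and 25116 in WT control. Its log2 ratio was 0.39 on the 3 control probe sets annotated to it alone. Probe sets that Gapdh shares with a pseudogene, which were not used, had CF control over WT control ratios of 1.20, 1.06 and 0.693. Pkm, the pyruvate kinase outside liver and red cells, had the lowest ratio of the group, 0.28. No ratio is given for Eno2, the enolase of neurons, which was below the filter.

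At the end of the pathway, the gene for lactate export stood out. Slc16a3, the lactate carrier MCT4, read 326 in CF + lubiprostone and 669 in CF control, against 331 in WT + lubiprostone and 285 in WT control. Only the CF control pool was high, 2.34-fold above WT control on a single probe set. Ldha, which makes lactate, read 24025 in CF + lubiprostone and 31711 in CF control, against 22650 in WT + lubiprostone and 20296 in WT control. Pdk1, a kinase that inhibits pyruvate dehydrogenase, had a log2 ratio of 0.38 ± 0.49, and 1 of its 3 probe sets was lower in CF control.

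Pfkfb3 and Pfkfb4, whose enzymes make and break fructose 2,6-bisphosphate, the activator of phosphofructokinase, did not share 1 pattern. Pfkfb4 read 3710 in CF + lubiprostone and 3152 in CF control, against 2277 in WT + lubiprostone and 1790 in WT control, a log2 ratio of 0.82 for the controls. Pfkfb3 read 502 in CF + lubiprostone and 377 in CF control, against 204 in WT + lubiprostone and 325 in WT control. Its control ratio was 0.21 ± 0.50, with 1 probe set higher and 1 lower.

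Of the genes of oxygen sensing, Hif1a and Egln3 were higher in CF control and Egln1 was not. Hif1a, the alpha subunit itself, read 1907 in CF + lubiprostone and 1762 in CF control, against 861 in WT + lubiprostone and 1064 in WT control. Its 3 probe sets were 1.51-fold to 1.94-fold higher in CF control. Egln3, a prolyl hydroxylase that is itself induced by HIF, read 993 in CF + lubiprostone and 2316 in CF control, against 819 in WT + lubiprostone and 776 in WT control, and both of its probe sets had this shape. Egln1, the main oxygen sensor in most cells, read 653 in CF control and 641 in WT control.

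**Figure D2:**
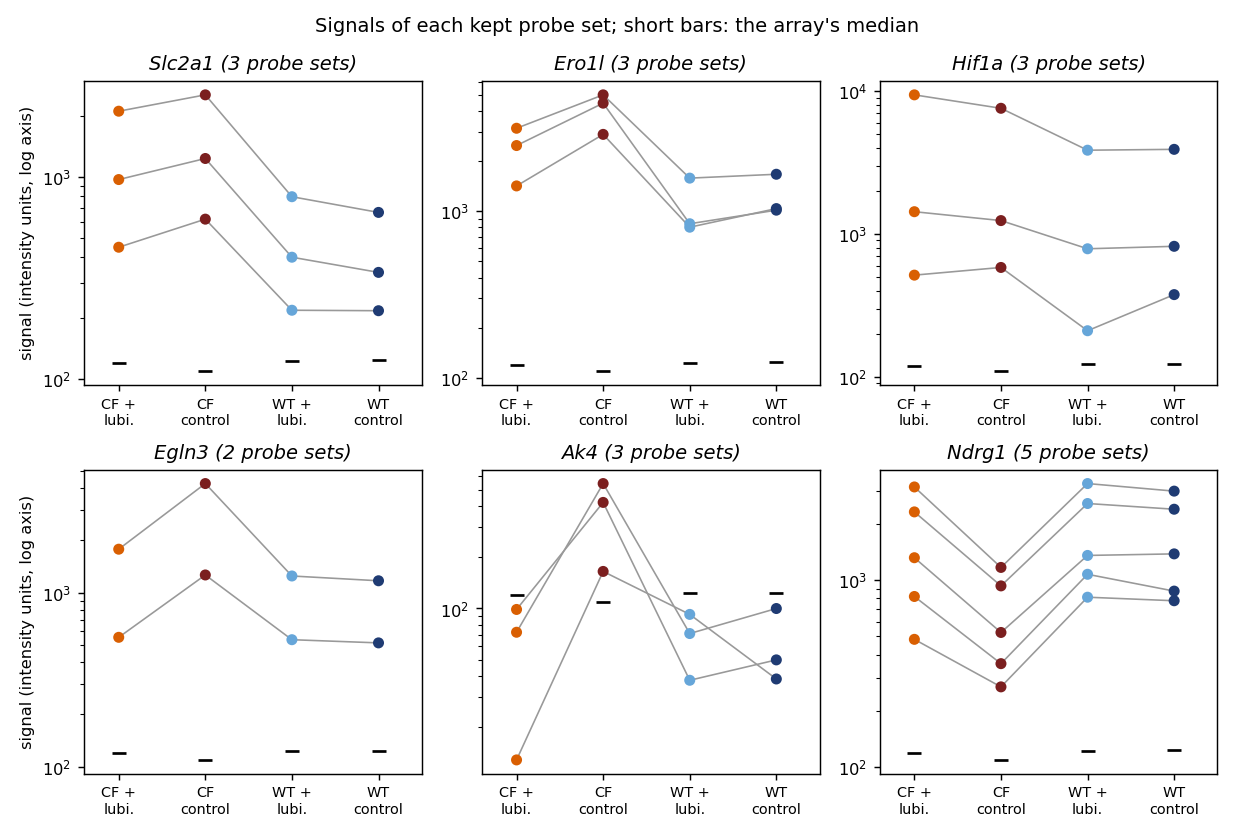
Signal of every kept probe set of 6 genes on the 4 arrays, on log axes that differ between panels, with short bars at each array's median. The 3 probe sets of Slc2a1, of Ero1l and of Hif1a are higher in both CF pools than in both WT pools, those of Egln3 and Ak4 are highest in CF control, and all 5 of Ndrg1 are lowest there.

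The genes known to be induced by low oxygen differed among themselves in CF control. Ero1l, an oxidase that drives disulfide formation in the endoplasmic reticulum, read 2233 in CF + lubiprostone and 4017 in CF control, against 1022 in WT + lubiprostone and 1207 in WT control. Its log2 ratio for the controls was 1.73 ± 0.35, and its 3 probe sets were 2.79-fold to 4.40-fold higher. Ak4, an adenylate kinase of the mitochondrial matrix, read 45.1 in CF + lubiprostone and 335 in CF control, against 62.9 in WT + lubiprostone and 57.7 in WT control. With signals below an array's median set to that median, the CF control value of Ak4 was at least 2.71-fold above WT control. Ero1l was thus high in both CF pools, and Ak4 in CF control alone. Adm, the vessel-widening peptide adrenomedullin, read 332 in CF + lubiprostone and 253 in CF control, against 98.0 in WT + lubiprostone and 119.8 in WT control. Both CF pools were high, and CF control stood at least 1.91-fold above WT control, where 1 of the 2 probe sets was below the median. P4ha1, a subunit of collagen prolyl hydroxylase, was dim at 169 in CF control and 112 in WT control, at least 1.36-fold higher.

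The remaining hypoxia products differed less or went both ways. Bnip3, which promotes the removal of mitochondria, read 878 in CF control and 720.4 in WT control. The 3 probe sets that Bnip3l, its relative, shares with a pseudogene had ratios of 0.987 to 1.11. The 2 Vegfa probe sets, for the vascular growth factor, read 1005 and 315 in CF control, against 1003 and 232 in WT control. Those of Higd1a, a mitochondrial protein induced by low oxygen, split: one was 1.36-fold higher in CF control and the other 1.64-fold lower. Ankrd37, an ankyrin repeat protein and HIF target, read 158 in CF + lubiprostone and 483 in CF control, against 226 in WT + lubiprostone and 266 in WT control. CF control was the highest pool on its single probe set, 1.81-fold above WT control.

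Ndrg1 had the lowest ratio of the set. This gene, induced by low oxygen and linked to cell differentiation, read 1307 in CF + lubiprostone and 560.2 in CF control, against 1585 in WT + lubiprostone and 1465 in WT control. The log2 ratio of the controls was -1.39 ± 0.09, and all 5 probe sets were lower in CF control, by 2.44-fold to 2.89-fold. CF control was the single low pool, and the other 3 pools lay within 1307 to 1585.

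The second comparison asked whether the same genes differed between CF and WT when both had received lubiprostone, and it shares no array with the first. Of the 30 genes, 22 were higher in CF + lubiprostone than in WT + lubiprostone, where 50.0% of all genes were. At least 1.5-fold higher were 9 genes, against 8.56% of all genes: Slc2a1, Hk2, Pfkfb3, Pfkfb4, Hif1a, Vegfa, Adm, Higd1a and Ero1l. None was at least 1.5-fold lower, against 9.29% of all genes. The median log2 ratio of the members was 0.25, beside 0.00 over all genes. Hk2 and, with its dim WT signals as measured, Adm exceeded 3-fold, 2 members where 1.36% of all genes did. Of the 2 Adm probe sets, 1 passed the filter only through the CF pools. Of the genes 1.5-fold higher, 6 were so in both comparisons, against 2.99% of all genes, namely Slc2a1, Hk2, Pfkfb4, Hif1a, Adm and Ero1l. They make up 66.7% of the 9 with lubiprostone and 35.3% of the 17 genes in the controls. Among all genes, the 367 shared were 34.99% of 1049 with lubiprostone and 37.18% of 987 in the controls. The members' share was thus higher than that of all genes for the lubiprostone list, but not for the control list.

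The 6 shared genes stand for glucose entry (Slc2a1, Hk2), the control of phosphofructokinase (Pfkfb4), oxygen sensing (Hif1a) and hypoxia products (Adm, Ero1l). Hk2 was 3.65-fold higher with lubiprostone, beside 4.48-fold in the controls, and Slc2a1 2.36-fold, beside 3.40-fold. Hif1a was 2.21-fold higher with lubiprostone, beside 1.66-fold, and Adm at least 2.69-fold, beside at least 1.91-fold. Ero1l was 2.18-fold higher, beside 3.33-fold. Pfkfb3 had a log2 ratio of 1.30 ± 0.56 with lubiprostone and 0.21 ± 0.50 in the controls, and its WT + lubiprostone signal, 204, was the lowest of the 4 pools.

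With lubiprostone, the enzymes of the central pathway had smaller ratios, some of them near 0 and some not. The log2 ratio of CF + lubiprostone over WT + lubiprostone was 0.07 for Pgam1, 0.09 for Ldha, 0.14 for Pfkl and 0.16 for Gapdh, and -0.03 for Tpi1. It was 0.51 for Pgk1, higher on all 3 probe sets, 0.44 for Aldoc and 0.40 for Aldoa, higher on 4 of 5. The median of the 6 upper glycolytic genes was 0.10 and of the 4 lower ones 0.12, against 0.47 and 0.48 in the controls. Whether a gene's ratio differed between treated and control mice could not be tested. Ak4 and Ankrd37 had log2 ratios of -0.48 and -0.52 here, and the 3 Ak4 probe sets were spread widely (SD 2.16), with all signals of both pools below the median. Vegfa passed 1.5-fold on 1 of 2 probe sets, where WT + lubiprostone read 90.6, below the median, and at least 1.34-fold is what the gene shows with that signal set to the median.

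**Figure D3:**
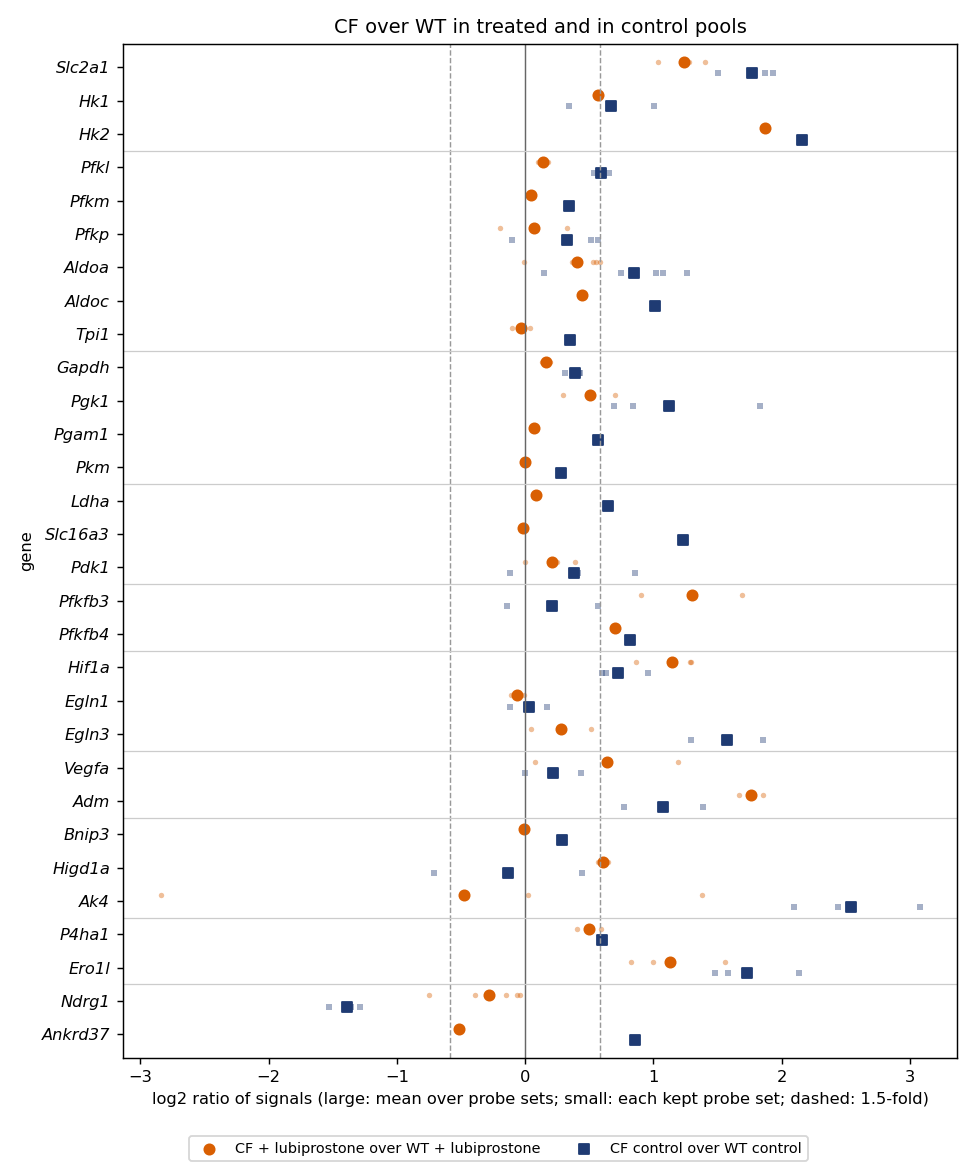
Log2 ratio of CF over WT for each gene, in lubiprostone pools (circles) and in control pools (squares), with small marks for single probe sets and dashed lines at 1.5-fold. Glycolytic enzymes from Pfkl to Slc16a3 lie nearer 0 with lubiprostone than in the controls, while Slc2a1, Hk2, Hif1a, Adm and Ero1l lie to the right in both.

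**Figure D4:**
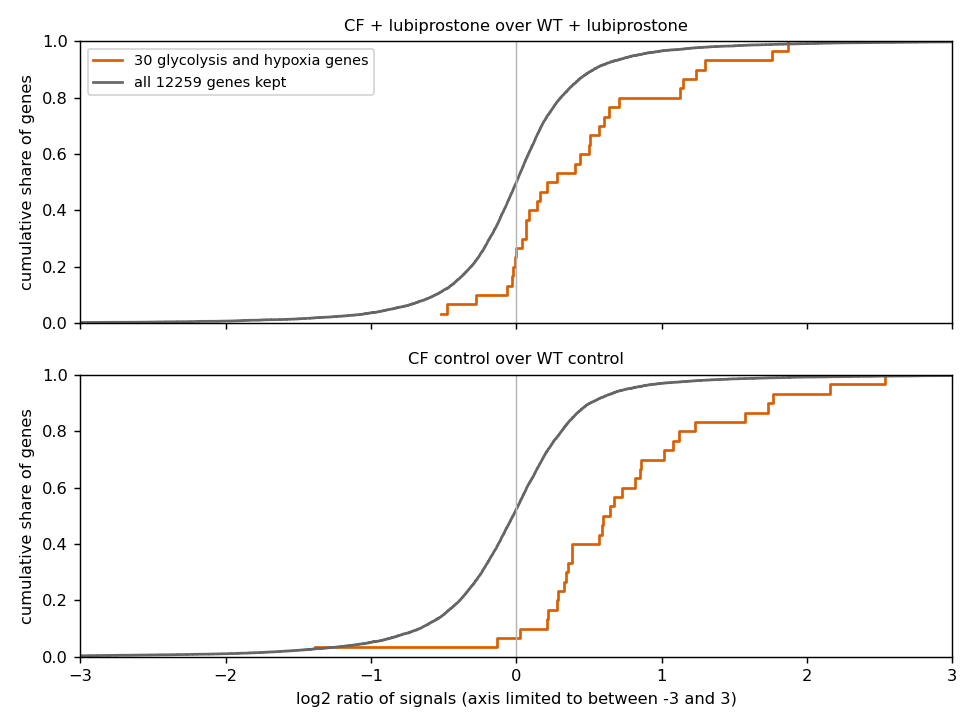
Cumulative share of genes by log2 ratio, for the 30 glycolysis and hypoxia genes and for all 12259 genes kept, in the lubiprostone pools (upper panel) and the control pools (lower panel). The members' curve lies to the right of the curve of all genes in both panels, with medians of 0.25 and 0.62 beside 0.00 and -0.02.

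Lubiprostone in CF mice went with lower signals of most of these genes. Of the 30, 24 had a lower signal in the CF + lubiprostone pool than in the CF control pool, where 48.2% of all genes were lower, and the median log2 ratio was -0.27, beside 0.02 over all genes. At least 1.5-fold lower were 7 genes, against 6.77% of all genes: Pgam1, Slc16a3, Egln3, Ak4, P4ha1, Ero1l and Ankrd37. Ak4, and 1 of the 2 P4ha1 probe sets, entered through the signal on CF control, the array that this ratio is set against. P4ha1 passed 1.5-fold only with its dim signals as measured. At least 1.5-fold higher were 2 genes, Higd1a and Ndrg1, against 9.99% of all genes. At 3-fold, Ankrd37, on a single probe set, and Ak4, with dim signals as measured, were lower, 2 members against 0.840% of all genes. None was 3-fold higher, against 1.16% of all. This comparison shares the CF control array with the first one, so a value that is high on that array raises the CF over WT ratio and lowers the lubiprostone ratio together.

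Within the pathway, 16 of the 18 glycolytic genes were lower with lubiprostone in CF mice, mostly by less than 1.5-fold. Slc16a3 was 2.05-fold lower in CF + lubiprostone and lay at the level of the WT pools. Pgam1 read 4566 in CF + lubiprostone and 7133 in CF control, 1.56-fold lower, and Ldha was 1.32-fold lower. Hk2 was close to equal, with a log2 ratio of -0.06, and Pfkfb3 and Pfkfb4 were the 2 glycolytic genes that were higher, at 0.41 and 0.23. Of the hypoxia genes, Egln3 was 2.33-fold lower, Ero1l 1.80-fold and Ankrd37 3.06-fold, and Ak4 was at least 2.80-fold lower. P4ha1 was at least 1.33-fold lower, with a signal of 100.3 in CF + lubiprostone, below the median. Ndrg1 was 2.33-fold higher in CF + lubiprostone on the mean of 5 probe sets that were all higher, by 1.79-fold to 2.69-fold. Higd1a was higher on both probe sets, by 1.26-fold and 1.84-fold.

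Lubiprostone in WT mice went with small differences. Of the 30 genes, 16 were higher in WT + lubiprostone than in WT control, where 49.4% of all genes were, and the median log2 ratio was 0.03, beside -0.00 over all genes. No member was at least 1.5-fold higher, against 5.00% of all genes, and Pfkfb3, Vegfa and P4ha1 were at least 1.5-fold lower, 3 genes against 5.67% of all. Pfkfb3 read 204 in WT + lubiprostone and 325 in WT control, and both probe sets were lower, one by 1.65-fold and the other by at least 1.36-fold, since its WT + lubiprostone signal was below the median. P4ha1 read 71.0 in WT + lubiprostone and 112 in WT control, both means below the median of their array. With signals below the median set to it, none of the 3 passed 1.5-fold. The comparison shares an array with each of the CF over WT comparisons. The 2 Vegfa probe sets went apart, with 1073 in WT + lubiprostone against 1003 in WT control on one and 90.6 against 232 on the other. Among glycolytic enzymes, Aldoc had the highest log2 ratio, 0.36, and Pfkfb4 had 0.35.

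**Figure D5:**
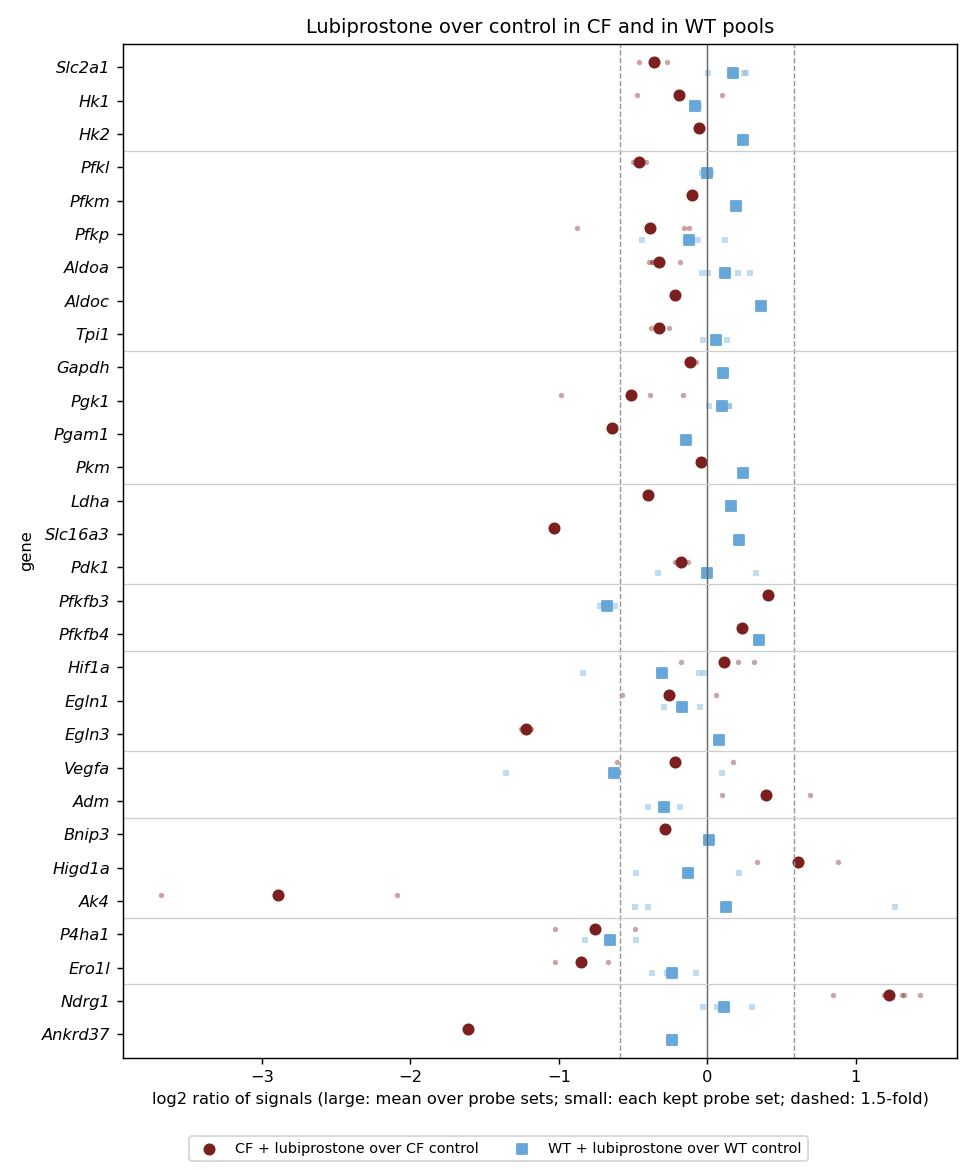
Log2 ratio of lubiprostone over control for each gene, in CF pools (circles) and in WT pools (squares), with small marks for single probe sets and dashed lines at 1.5-fold. In CF pools 24 of 30 genes lie left of 0, with Ak4, Ankrd37, Egln3 and Slc16a3 farthest, while in WT pools no gene reaches 1.5-fold to the right.

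Further genes of the pathway were counted against the same shares, 8.05% of all genes 1.5-fold higher in CF control over WT control and 12.2% lower. Of 11 further glycolytic isoenzymes and side enzymes kept, none was 1.5-fold or more above WT control in the CF control pool and 2, Eno3 and Galm, were lower, with a median log2 ratio of -0.21, which on so few genes is near those shares. Hkdc1, a hexokinase domain protein, read 5271 in CF control and 4710.0 in WT control, and Pklr, the pyruvate kinase of liver and red cells, 1522 in CF control and 1473 in WT control. Of 13 genes of pyruvate dehydrogenase and pyruvate transport, none was 1.5-fold or more above WT control and 3, the kinases Pdk2, Pdk3 and Pdk4, were lower, with a median of 0.23. The highest of these were Pcx, pyruvate carboxylase, with a log2 ratio of 0.55, and Slc16a1, the carrier MCT1, with 0.48. Pdk4 read 1655 in CF + lubiprostone and 198 in CF control, against 900 in WT + lubiprostone and 1460.5 in WT control. In CF + lubiprostone over CF control, 2 of the 13, Pdk4 and Pdp2, were at least 1.5-fold higher, against 9.99% of all genes. None was lower by that measure, against 6.77%. Of 10 further regulators of the HIF pathway, none was 1.5-fold or more above WT control in CF control. By that measure 1, the coactivator Ep300, was lower, again near the shares of all genes. In CF + lubiprostone over CF control, 8 of the 10 were higher and 2 lower, with a median log2 ratio of 0.18. Arnt, the partner of Hif1a, read 303 in CF control and 293 in WT control, and Epas1, the alpha subunit HIF-2, 863 in CF control and 862 in WT control.

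Of 31 further genes known to be induced by low oxygen, 7 were 1.5-fold or more above WT control in CF control, against 8.05% of all genes, 3 were lower, against 12.2%, and the median log2 ratio was 0.12. The higher genes were Car9, Ddit4, Fam162a, Bhlhe40, Mif, Tfrc and Slc7a5, and the lower ones Gbe1, Angptl4 and Ppfia4. With lubiprostone 11 of the 31 were at least 1.5-fold higher in CF than in WT, against 8.56% of all genes, and none was lower, against 9.29%, with a median of 0.27. In CF + lubiprostone over CF control, 20 of the 31 were higher and 11 lower, where 48.2% of all genes were lower. Their median log2 ratio was 0.09, unlike that of the members, -0.27. At least 1.5-fold higher were 5, against 9.99% of all genes, and 2 were lower by that measure, against 6.77%. Fam162a, a mitochondrial protein induced by low oxygen, read 2856 in CF + lubiprostone and 1942 in CF control, against 655 in WT + lubiprostone and 553 in WT control. Slc7a5, a carrier of large neutral amino acids, read 559.5 in CF + lubiprostone and 421 in CF control, against 164 in WT + lubiprostone and 109 in WT control. Angptl4, an inhibitor of lipoprotein lipase that is also induced by fasting, went the other way in the controls, with 1707 in CF + lubiprostone and 274 in CF control, against 777 in WT + lubiprostone and 906 in WT control.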

How the data were processed

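The authors deposited signals, intensity values on a linear scale extracted and scaled per array with GCOS (MAS5), from 1 pool of equal RNA amounts and 1 array per group. The versions are not given in the sources used here. Of 45101 probe sets, 34958 had 1 gene symbol, 932 with several were left out and 9211 were unnamed. Symbols of 34754 were updated by gene identifier. The filter kept 21756 probe sets. Log2 ratios were averaged over a gene's probe sets, and a fold with a signal below the median is written "at least", with that signal set to the median. Counts used 1.5-fold and 3-fold. No test was possible, and the number of arrays limits the precision. All 35 genes are named. Of the other lists, a gene could be named if among the 2 highest or 2 lowest in CF control over WT control, and others were named as making up a count, after their values were seen. Members and lists were chosen with earlier results of these data known. The 8 alternatives covered scaling, filters, the choice and averaging of probe sets, and dim signals. Steps were tested on simulated data. Python 3.11, numpy 2.4.6, pandas 2.3.3 and matplotlib 3.10.9 were used.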

Additional observations from a re-analysis of the deposited data

Results flagged for a closer look

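In 5 cases the 2 ratios of a gene, taken from signals as measured, had opposite signs and both exceeded the median SD between probe sets of all genes. With 1 array per group each ratio stands for a single pair of pools, and none of these differences was tested. For Slc16a3, the lactate carrier, the log2 ratio of lubiprostone over control was -1.04 in CF and 0.21 in WT, so that CF minus WT was -1.25. For Pfkfb3, which makes the activator of phosphofructokinase, it was 0.41 in CF and -0.67 in WT, so that CF minus WT was 1.09. For Adm it was 0.39 in CF and -0.29 in WT, a difference of 0.68. The mean Adm signals of both WT pools lay below the arrays' medians, and where the median replaced dimmer signals the WT ratio was 0.934, so the flag rests on dim signals. For Ak4, the log2 ratio of CF over WT was -0.48 with lubiprostone and 2.54 in the controls, so that treated minus control was -3.02, with only the CF control signal above the median. Where the median replaced dimmer signals the treated ratio was 0.976, so the opposite sign and the size of this difference rest on dim signals. For Ankrd37 it was -0.52 with lubiprostone and 0.86 in the controls, so that treated minus control was -1.37. Each of these differences is the same contrast of all 4 arrays, whichever way it is read.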

How the results depend on the processing

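The median log2 ratio of the members kept its sign in the CF over WT comparisons and in lubiprostone over control in CF under all 8 alternatives, with ranges of 0.58 to 0.80 for the controls, 0.14 to 0.31 for the treated pools and -0.40 to -0.17 for lubiprostone in CF. The members at least 1.5-fold higher numbered 12 to 18 in CF control and 7 to 10 in CF + lubiprostone over WT + lubiprostone, and those lower with lubiprostone in CF 6 to 9. Over all genes these counts moved too. They were 471, 432 and 297 of 7411 genes with the filter at the 75th percentile. Without a filter they were 2582, 3040 and 2570 of 18194. The small counts moved. Without a filter, the members 1.5-fold lower were 2 in CF control over WT control, 1 in CF + lubiprostone over WT + lubiprostone and 5 in WT + lubiprostone over WT control, where 1 was higher. Over all 18194 genes then kept, 4062, 3265 and 2741 were lower in these comparisons, and 2627 were higher in the last. Leaving out probe sets ending in _x_at, _s_at or _a_at, which left 22 members, gave 1 lower in CF + lubiprostone over WT + lubiprostone, beside 1023 of 10604 genes in all. The 3 genes lower with lubiprostone in WT were 1 with the filter at the 75th percentile, 1 with the brightest probe set, 2 with means of linear signals, 2 without those endings and 0 where the array median replaced dimmer signals. Over all genes the counts, in that order, were 109 of 7411, 639 and 614 of 12259, 658 of 10604 and 268 of 12259. The 2 genes higher with lubiprostone in CF were 1 with scaling to the same median, with the brightest probe set and with means of linear signals. Over all 12259 genes these settings gave 867, 1222 and 1149. Vegfa in WT + lubiprostone over WT control turned to 0.10 with the filter at the 75th percentile, the brightest probe set or without those endings, because 1 of its 2 probe sets is then left. Scaling to the same median moved the median of all genes in CF control over WT control to 0.16, with 1745 genes 1.5-fold higher and 1006 lower, beside 987 and 1498, and 29 of 30 members were higher. For lubiprostone in CF it moved to -0.11, with 867 higher and 1303 lower, beside 1225 and 830. Of 920 values of single members, 842 stayed within the median SD between probe sets of all genes from the main value, and 75 moved further. Another 3, at least 1.5-fold in the main setting, changed sign. A change of sign in a smaller ratio was not counted as a reversal. No paired analysis was possible because each group has 1 array. Signals near the median, such as those of Ak4, Adm and P4ha1, give bounds only.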

Other observations

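Genes of glucose storage, of the reverse pathway and of the pentose branch were set beside those of glycolysis. Of 9 genes of glycogen and gluconeogenesis, none was 1.5-fold or more above WT control in CF control, against 8.05% of all genes, and 4, Fbp1, Fbp2, Pck1 and G6pc, were lower by that measure, against 12.2%. Gyg, the primer protein of glycogen, had a log2 ratio of 0.52 in the controls, and Pygb, a glycogen phosphorylase, of 0.41. In CF + lubiprostone over CF control, 4 of the 9, Fbp1, Pck1, Pck2 and G6pc, were at least 1.5-fold higher, against 9.99% of all genes. None was lower by that measure, against 6.77%. Pck1 was 3.19-fold and Fbp1 3.32-fold higher there. Of 6 genes of the pentose phosphate pathway, which branches from glycolysis after hexokinase and yields NADPH, 1 was above WT control by 1.5-fold or more, near the share of all genes. This was Pgd, with 7039.9 in CF + lubiprostone and 10838 in CF control, against 5473 in WT + lubiprostone and 5046 in WT control. Its CF control signal was the highest of the 4 pools.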
